A study of Mus musculus with 3 samples.

Results

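Nuclear pore proteins and the receptors that carry cargo through the pore were followed in RAW264.7 cells, a transformed line of mouse macrophages, before lipopolysaccharide (LPS) and after 2 and 12 h of it. LPS is the bacterial outer membrane component sensed by Toll-like receptor 4. Members were the genes with a symbol that starts with Nup and a digit, Pom121, Kpna, Kpnb, Ipo and a digit, Xpo, Tnpo or Ranbp, together with Ran itself, and that were read by at least 1 probe set assigned to a single gene. The rule used no measured value and found 45 of the 12393 genes on the array, read by 90 probe sets. Another 2 probe sets were assigned to a member and another gene together and were not used. Each time was 1 array of RNA from untreated or LPS-treated cells of this 1 line, with 3 arrays in all. No untreated culture at 2 or 12 h was analysed here, so LPS and time in culture cannot be told apart. The LPS dose is not given in the sources used here, nor is the age or passage of the cultures. As a line that divides without added growth factor, RAW264.7 differs from resting primary macrophages. In RNA from whole cultures, a change in the share of cells that express a gene and a change in the RNA per cell cannot be told apart.

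The nuclear pore is a ring-shaped channel through the nuclear envelope. A membrane ring anchors it, scaffold nucleoporins of the Y complex and the inner ring build its frame, and nucleoporins rich in phenylalanine-glycine repeats fill the channel. Importins recognise nuclear localisation signals, exportins recognise nuclear export signals, and the small GTPase Ran sets the direction by binding each receptor in its GTP form on the nuclear side. In macrophages, NF-kB and STAT proteins reach the nucleus after stimulation through importin alpha and importin beta, which is why these receptors are of interest in an LPS response.

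Values are linear signals scaled to one trimmed mean per array. A floor of 34.96, the 40th percentile of all signals, was set, and a gene counts as changed where 2 arrays differ at least 2-fold. With no replicates there is no test and no error between cultures. The only error that the arrays hold is how far probe sets of the same gene disagree, with an SD on the log2 scale of 0.32 at 2 h and 0.34 at 12 h, both relative to 0 h, and 0.31 from 2 to 12 h. All 10 macrophage markers examined, among them Cd68, Csf1r and Lyz2, were above the floor on every array, whereas no marker of T cells was on any. Of the markers of B cells, fibroblasts, endothelium and epithelium, 1 in each list was above it on at least 1 array, namely Ms4a1 at 12 h alone, Col1a2, Kdr and Krt8. Signals of the LPS target Tnf were 184, 3346 and 1343 at 0, 2 and 12 h, and those of the chemokine gene Cxcl2 were 53, 3459 and 3702. Both comparisons with 0 h use the same 0 h array.

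Of the 45 members, 44 were above the floor at all 3 times. The exception was Ranbp17, which encodes an importin beta family protein, with signals of 9.69, 8.3 and 6.01. By the brightest probe set of each gene, 1 of the 44 was at least 2-fold lower at 2 h and none was higher. Of all measured genes, 1.69% were lower by that size and 2.09% higher. At 12 h, 1 member was again 2-fold lower than at 0 h and none higher, beside 2.4% lower and 3.01% higher over all genes. From 2 to 12 h, 1 member was 2-fold lower and none higher, beside 1.98% and 2.65%. One member among 44 is near these shares. Pom121 was the member lower in both comparisons with 0 h, and Nup98 was the member lower at 12 h than at 2 h. Read by the same probe sets, 39 of the 44 members stayed within 1.5-fold in all 3 comparisons. The other 5, or 11.4%, were beyond it in at least 1 comparison, beside 31.1% of the 7318 genes above the floor on all arrays. Members were brighter than most genes. With the floor at the 60th percentile, all 44 were still measured at 2 h, beside 5886 of 8422 genes. No comparison with genes of like signal was made, so the lower share cannot be read as particular to nuclear transport. In single comparisons, 15.2% of all measured genes were beyond 1.5-fold at 2 h, 18.7% at 12 h and 16.6% from 2 to 12 h. The 5 members were Pom121, Nup98, Nup54, Kpna2 and Ranbp10. Some of the 39 have another probe set beyond 1.5-fold. Among these, 1 of Nup50 was at -1.12 (log2) at 2 h and 1 of Kpna6 at 1.04 at 12 h, both past 2-fold.

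The members' median log2 difference at 2 h was -0.11, beside -0.10 over all measured genes. At 12 h it was -0.20, beside -0.05. From 2 to 12 h it was -0.10, beside 0.05. Scaling the arrays to one median moved the median of all genes at 2 h from -0.10 to 0.03, and that of the members to 0.04, so values near 0 at 2 h carry no direction. Below 0 h were 24 of 44 members at 2 h, where 62.4% of all genes were, and 30 of 44 at 12 h, beside 54.7%. From 2 to 12 h, 28 of 44 went down, beside 44.2% of all genes. Relative to the median of all measured genes, 23 members lay below and 21 above at 2 h, and 30 below and 14 above at 12 h. The split at 12 h was also 30 to 14 with median scaling and with quantile normalization. Members further from the all-gene median than the SD between probe sets numbered 11 of 44 at 2 h, where 37.1% of all genes were that far. At 12 h they numbered 15 of 44, beside 40.7% of all genes, and between 2 and 12 h 14 of 44, beside 41.3%. These shares were not matched for signal level either.

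**Figure D1:**
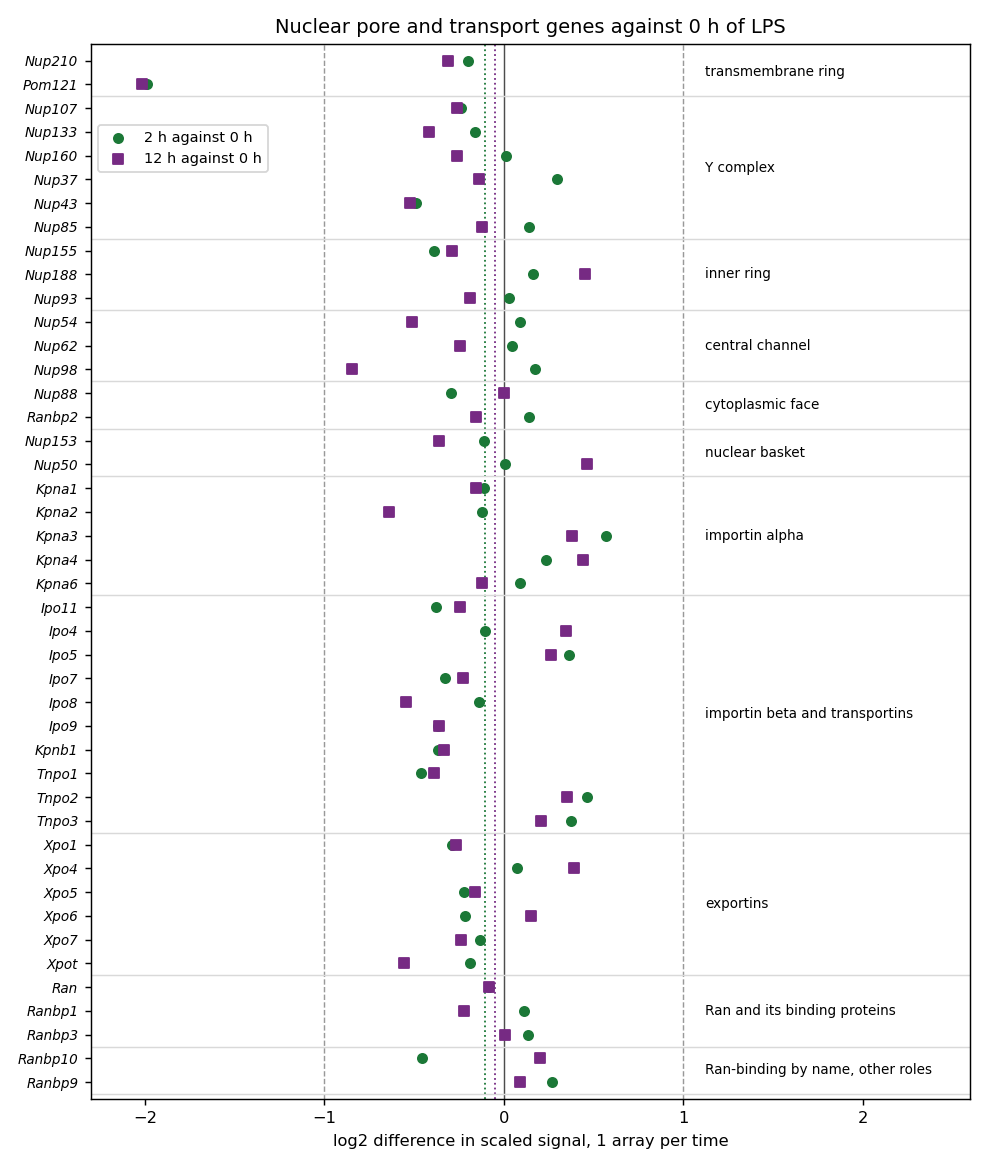
Log2 difference in scaled signal against the 0 h array for the 44 members above the floor, grouped by role, at 2 h (green circles) and 12 h (purple squares), with 1 array per time and no error bars. Dashed lines mark 2-fold, dotted lines the median of all measured genes at each time; Pom121 lies near -2 at both times, while the other members lie between -0.85 and 0.57.

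Pom121 anchors the pore in the nuclear envelope as one of its membrane-spanning proteins. Its brighter probe set gave signals of 1258, 317 and 311.1 at 0, 2 and 12 h. Signal was high before LPS and low at both later times, 3.97-fold lower at 2 h and 4.04-fold lower at 12 h. The second probe set gave 92.2, 70.6 and 74.6, or log2 differences of -0.39 at 2 h and -0.31 at 12 h. Both probe sets were thus lower at both times, but by sizes that differ by 1.60 on the log2 scale at 2 h, beyond the SD between probe sets of 0.32. The suffix of the second marks a probe set that may detect more than 1 transcript. With the median over both, which for 2 probe sets is their mean, the log2 difference was -1.19 at 2 h and -1.16 at 12 h. That is past 2-fold through the brighter probe set, as the second alone is not. Nup210, the other membrane-spanning member on the array, had signals of 203.3, 177.3 and 163.7, and its log2 differences of -0.20 and -0.31 were within the spread between probe sets.

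Upstream sequence is shown for members whose signals the results turn on, together with Ran, the GTPase of the cycle. Of the 45 members, 36 matched the RefSeq promoter table (GRCm38.p6), with 43 promoters of 300 bases, from 250 before to 50 after a transcript start. Capitals mark, on either strand, the E-box CACGTG bound by Myc family proteins, the ETS core CCGGAAG, the NRF1-type palindrome (GCGC, any 2 bases, GCGC), the CCAAT box, the TATA box TATAAA, the cell cycle homology element TTTGAA or an NF-kB-type decamer (GGGA, any 4 bases, CC). In Pom121, TTTGAA, read on the opposite strand, was the only one of these letters found, at chr5:135394497-135394796 on the minus strand.
Pom121: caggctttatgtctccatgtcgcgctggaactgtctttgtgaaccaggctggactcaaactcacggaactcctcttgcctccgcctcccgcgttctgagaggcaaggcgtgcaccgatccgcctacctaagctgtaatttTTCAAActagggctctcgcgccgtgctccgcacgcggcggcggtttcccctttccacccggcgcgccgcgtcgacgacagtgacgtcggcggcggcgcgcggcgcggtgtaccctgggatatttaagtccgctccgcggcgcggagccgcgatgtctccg

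The letters of all 7 motifs occur in many promoters, so their shares are set beside those of all 32851 promoters in the table. CACGTG was in 9 of the members' 43 promoters (20.9%, beside 7.15% of all), the NRF1-type palindrome in 8 (18.6%, beside 6.23%), CCGGAAG in 8 (18.6%, beside 8.86%) and CCAAT in 21 (48.8%, beside 37.4%). The NF-kB-type decamer was in 10 (23.3%, beside 20.7%), TTTGAA in 9 (20.9%, beside 17.9%) and TATAAA in 5 (11.6%, beside 13.6%). Windows of 1 gene can overlap, as those of Ipo9 and of Nup37 do. By gene the counts were 9 for CACGTG, 7 for the NRF1-type palindrome, 7 for CCGGAAG and 18 for CCAAT. They were 9 for the NF-kB-type decamer, 8 for TTTGAA and 5 for TATAAA. The members' promoters were also rich in G and C, with a median of 65.3% beside 52.7% for all and a median of 28 CpG dinucleotides beside 7. CACGTG, the NRF1-type palindrome and CCGGAAG hold CpG themselves, and promoters of the same GC content were not set beside them. Matched letters describe these windows and do not show a site in use.

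The Y complex is the scaffold that forms the outer rings of the pore. At 2 h the 6 of its genes that the symbol rule takes in were split, 3 above and 3 below 0 h. At 12 h all 6 were below 0 h, by log2 differences between -0.12 and -0.52. Their median at 12 h was -0.26, beside -0.05 over all measured genes, and all 6 were below the all-gene median with trimmed mean, median and quantile scaling. None was 2-fold or 1.5-fold apart by its brightest probe set. The order of size at 12 h was Nup43 (signals 261.9, 186.9 and 182), Nup133 (157, 140.2 and 117.5), Nup160 (315.1, 317.7 and 263.2), Nup107 (369.5, 312.6 and 308.8), Nup37 (446.6, 548.1 and 406) and Nup85 (317.8, 349.9 and 292.7). Nup43 and Nup107 were below 0 h by 2 h, whereas Nup37, Nup160 and Nup85 were at or above 0 h at 2 h and lower at 12 h. Counting every probe set of the 6 members above the floor in either array, 10 of 10 were below 0 h at 12 h, where 55.2% of all probe sets were. Probe sets of one array share its RNA and are not replicates. Not every gene of the complex was lower at 12 h. Seh1l, Sec13 and Ahctf1, Y complex genes outside the symbol rule, had log2 differences of -0.05, 0.18 and 0.29 at 12 h.

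The inner ring lines the pore wall and links membrane to channel. Nup155 had signals of 260.2, 199.1 and 212.6, Nup93 444.4, 453.1 and 389.9, and Nup188 131.3, 146.7 and 179.5. Nup188 lay on the other side of 0 h from its partners at 12 h, with a log2 difference of 0.45 beside -0.29 for Nup155 and -0.19 for Nup93. The 2 probe sets of Nup155 gave -0.39 each at 2 h, and -0.29 and -0.89 at 12 h.

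Nup98 carries repeats that hold mRNA and protein export factors, and it is grouped here with Nup62 and Nup54, which fill the central channel. Its signals were 90.6, 102.1 and 50.4, so that the level at 12 h was 2.03-fold lower than at 2 h and 1.80-fold lower than at 0 h. A single probe set reads it and its 12 h signal lies close to the floor. The decrease from 2 h was under 2-fold when a pseudocount replaced the floor (-0.68 on the log2 scale) and when the floor was raised to the 60th percentile (-0.27). Against 0 h, the 12 h difference of -0.85 was -0.10 with that raised floor. Nup54 had signals of 353.3, 376.2 and 248.2, a log2 difference of -0.60 from 2 to 12 h, while its other probe sets gave -0.42 and -0.08. Nup62 had signals of 621.4, 640.8 and 524.9. At 12 h all 3 genes, and 7 of their 7 measured probe sets, were below both earlier times, where 55.2% of all probe sets were below 0 h and 46.0% below 2 h. Of the 2 Nup98 starts in the table, the window of the downstream one, at chr7:102209818-102210117, holds none of the 7 motifs. The upstream one, at chr7:102210117-102210416 on the minus strand, holds a pair of CCAAT boxes and 1 TTTGAA element on the opposite strand.
Nup98: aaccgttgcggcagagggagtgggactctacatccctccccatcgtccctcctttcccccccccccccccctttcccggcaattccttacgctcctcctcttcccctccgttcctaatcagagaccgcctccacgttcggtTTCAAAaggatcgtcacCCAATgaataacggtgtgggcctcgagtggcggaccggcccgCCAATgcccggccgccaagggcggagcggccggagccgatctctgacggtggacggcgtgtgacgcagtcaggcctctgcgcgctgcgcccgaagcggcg

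At the cytoplasmic face, where export complexes are taken apart, Nup88 had signals of 470, 382.9 and 470.8 and Ranbp2, the large Ran-binding filament protein also called Nup358, 252.7, 278.9 and 227.4. Neither was 1.5-fold apart at any time. The second Ranbp2 probe set gave a log2 difference of 0.44 at 12 h, against -0.15 for the one used. In the nuclear basket, which faces the chromatin, Nup153 had signals of 626.5, 580.3 and 488.6. Nup50, a basket protein that helps release cargo from importin alpha, has no settled direction against 0 h. Its brightest probe set gave 214.5, 215.7 and 296, higher at 12 h by 0.46 (log2), whereas the other 2 gave -0.78 and -1.12 at 2 h and -0.44 and -0.89 at 12 h. From 2 to 12 h all 3 Nup50 probe sets were higher, by 0.46, 0.34 and 0.23.

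**Figure D2:**
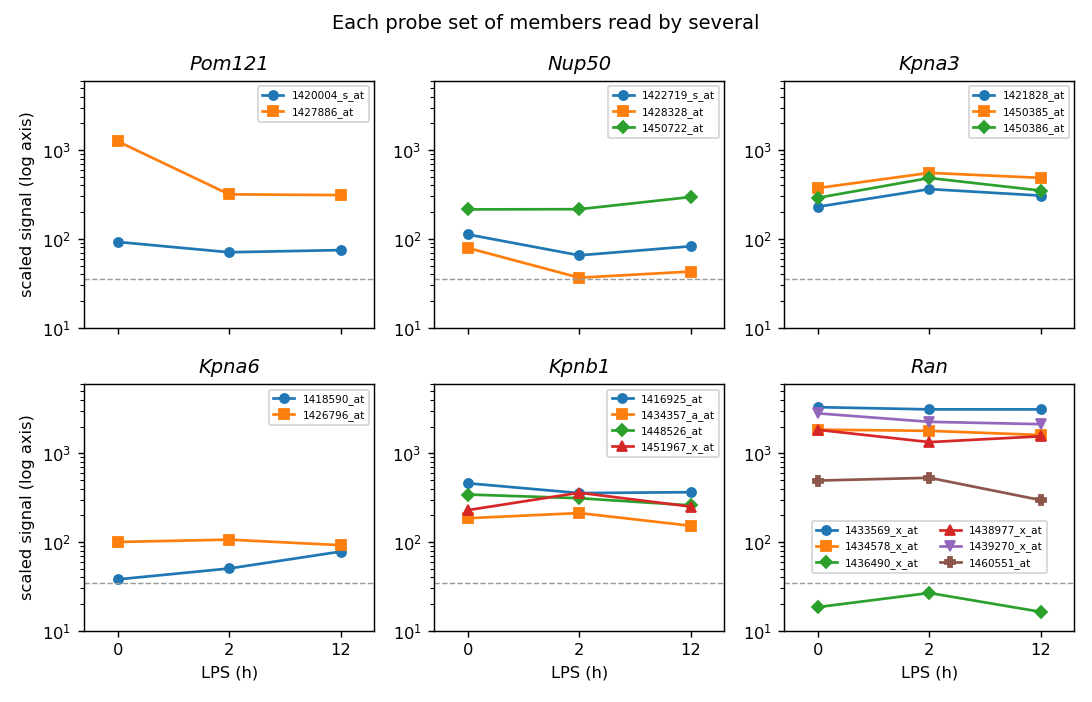
Scaled signal (log axis) of each probe set at 0, 2 and 12 h for 6 members read by several, 1 array per time, with the floor of 34.96 dashed; a line is a probe set. The Kpna3 probe sets run together, those of Pom121 are lower after LPS by different sizes, and those of Nup50 and Kpna6 part.

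The importin alpha proteins are adaptors that bind classical localisation signals, and they did not lie on one side of 0 h. Kpna3 had signals of 373.2, 553.6 and 486.3, 1.48-fold over 0 h at 2 h, the largest positive difference among members at that time. Its 3 probe sets gave log2 differences of 0.57, 0.66 and 0.74 at 2 h and 0.27, 0.38 and 0.42 at 12 h, all in one direction. Kpna4 had signals of 219.2, 257.6 and 297.8, and its 2 probe sets were at 0.44 and 0.67 at 12 h. Neither gene reached 2-fold. Kpna1 had signals of 379.8, 351.8 and 340.8, but its 5 probe sets ran from -0.67 to 0.31 at 12 h, so no direction can be given. Kpna6 had signals of 100.2, 106.5 and 92.3 by its brighter probe set, while its other one went from 38 at 0 h to 78.1 at 12 h, a log2 difference of 1.04.

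Kpna2, an importin alpha known for high levels in dividing cells, had the largest negative difference of this family by the brightest probe sets. Its signals were 1764, 1619 and 1133, a level 1.56-fold lower at 12 h than at 0 h, with a log2 difference from -0.71 to -0.59 over the processing settings tried. Kpna2 is read by 1 probe set, and 1 of the 5 Kpna1 probe sets was lower at 12 h, at -0.67. Genes of G2 phase and mitosis were lower on the same array: 12 of 24 measured were at least 2-fold lower at 12 h and none higher, and their median log2 difference was -0.996. Ccnb2 had signals of 776.3, 708.2 and 198.5 and Tpx2, a spindle factor that importin alpha binds, 304.2, 227.7 and 147.5. Whether the Kpna2 value follows from the share of dividing cells was not tested. The Kpna2 promoter, at chr11:106999476-106999775 on the minus strand, holds 2 CCAAT boxes, 1 TTTGAA element on the opposite strand and 2 adjoining NF-kB-type decamers.
Kpna2: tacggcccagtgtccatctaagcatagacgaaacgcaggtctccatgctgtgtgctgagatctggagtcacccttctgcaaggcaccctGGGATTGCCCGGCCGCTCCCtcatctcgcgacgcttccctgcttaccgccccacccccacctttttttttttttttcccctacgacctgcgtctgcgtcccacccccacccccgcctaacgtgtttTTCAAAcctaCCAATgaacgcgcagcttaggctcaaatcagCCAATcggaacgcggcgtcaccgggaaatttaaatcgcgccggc

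Importin beta and its relatives carry cargo through the channel. Kpnb1, the partner of importin alpha, had signals of 460, 356.4 and 364.8, a log2 difference of -0.37 at 2 h and -0.33 at 12 h. Its 4 probe sets disagreed at 2 h, from -0.37 to 0.65, and 3 of 4 were below 0 h at 12 h. Of the 10 measured members of this group, 7 were below and 3 above 0 h at 2 h, or 5 and 5 with median scaling. At 12 h 6 were below and 4 above. Of all genes, 62.4% were below 0 h at 2 h and 54.7% at 12 h, so these counts are near the shares over all genes. By the brightest probe sets no member was 1.5-fold apart. The lower ones at 12 h were Ipo8 (176.6, 160.7 and 121.2), Tnpo1 (418.2, 303.2 and 319.9), Ipo9 (205.2, 158.9 and 160), Kpnb1, Ipo11 (269, 207.4 and 227.5) and Ipo7 (1216, 968.8 and 1041). Tnpo1 is the carrier of hnRNP proteins, and Ipo7 and Ipo9 carry ribosomal proteins and histones among other cargo. The 2 Ipo8 probe sets were both at -0.54 at 12 h but gave -0.14 and -0.82 at 2 h.

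Tnpo2, Tnpo3, Ipo5 and Ipo4 were the members of this group above 0 h at 12 h. Tnpo3, which imports serine-arginine rich splicing factors, had signals of 147.2, 190.5 and 169.8, and its 3 probe sets ran from 0.10 to 0.65 at 12 h. Ipo5, a carrier of ribosomal proteins, had signals of 877.5, 1129 and 1052, and a second probe set was above 0 h by 0.52 (log2) at 2 h and by 0.04 at 12 h. Tnpo2, the close relative of Tnpo1, had 86.6, 119.5 and 110.4, but its second probe set gave -0.02 and -0.06. Ipo4 had 332.8, 309.5 and 423.8, and both its probe sets were higher at 12 h, by 0.35 and 0.32. Tnpo1 and Tnpo2 thus lay on opposite sides of 0 h by their brighter probe sets, whereas the second Tnpo2 probe set lay on the same side as Tnpo1.

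Exportins leave the nucleus with their cargo. Xpo1 (CRM1), which exports proteins with leucine-rich signals, had signals of 1272, 1042 and 1057, and a second probe set gave 608.2, 507.3 and 420.8. Both lay below 0 h at both times. Xpot, the tRNA exporter, had signals of 518.6, 455.3 and 352.4 and was 1.47-fold lower at 12 h. Xpo7 had 384.5, 350.6 and 325.9, and its second probe set gave 190.2, 162.5 and 123.1, a log2 difference of -0.63 at 12 h. Xpo5, the carrier of microRNA precursors, had 173.9, 149 and 155.5. Xpo4 (195.1, 205.1 and 255.8) and Xpo6 (275.8, 237.7 and 306.8), the exporter of actin with profilin, were above 0 h at 12 h. In this group 5 of 6 members were below 0 h at 2 h, or 4 of 6 with median scaling, and 4 of 6 at 12 h, beside 62.4% and 54.7% of all genes. By the probe sets used, none was 1.5-fold apart.

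Ran had signals of 3312, 3128 and 3126 by its brightest probe set, within 1.06-fold at all times, but its other probe sets were not as flat. Of its 6 probe sets, the 5 above the floor were all below 0 h at 12 h, by log2 differences of -0.08, -0.20, -0.24, -0.40 and -0.73. At 2 h they ran from -0.46 to 0.10. The probe set at -0.73 is the only one that carries no suffix for cross-hybridisation, with signals of 493, 530.2 and 296.8, and the others may read related sequences as well. Ranbp1, which helps Ran hydrolyse GTP in the cytoplasm, had signals of 2591, 2803 and 2225. Ranbp3, a cofactor of Xpo1, had 287.3, 315.5 and 289.1. Ranbp9 and Ranbp10 carry the name for Ran binding but are known as scaffold proteins of a ubiquitin ligase. Ranbp10 was low at 2 h only, with signals of 191.1, 139.3 and 219.8, and its second probe set gave 130.3, 83.9 and 123.6. From 2 to 12 h these differed by 0.66 and 0.56 on the log2 scale. Ranbp9 had 199.1, 240.1 and 212.1. The Ran promoter, at chr5:129019906-129020205 on the plus strand, holds 1 CACGTG, 1 NRF1-type palindrome and 1 NF-kB-type decamer on the opposite strand.
Ran: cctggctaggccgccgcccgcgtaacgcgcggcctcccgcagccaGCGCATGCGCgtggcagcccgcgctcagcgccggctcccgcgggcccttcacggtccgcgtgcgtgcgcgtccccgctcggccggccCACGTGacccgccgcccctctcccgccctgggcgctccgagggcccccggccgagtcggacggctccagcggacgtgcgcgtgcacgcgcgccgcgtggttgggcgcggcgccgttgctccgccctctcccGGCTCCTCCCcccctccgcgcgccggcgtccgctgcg

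Other genes of nuclear transport, outside the symbol rule, were read as well. Of 15 measured, none was 2-fold apart in any comparison. Over all genes, 1.69% to 3.01% were in each direction, so none among 15 is near these shares. Their median log2 difference was 0.05 at 2 h, beside -0.11 for members and -0.10 for all genes. At 12 h it was -0.15, beside -0.20 and -0.05, and from 2 to 12 h -0.21, beside -0.10 and 0.05. Rangap1, which activates the GTPase of Ran, had signals of 459.8, 609.5 and 495.4, and Rcc1, the nucleotide exchange factor on chromatin, 229.1, 259.8 and 225. Cse1l, which returns importin alpha to the cytoplasm, had 1002, 888.4 and 753.1. Gle1, an mRNA export factor at the cytoplasmic face, had 157.2, 137 and 89.3, a log2 difference of -0.81 at 12 h. Senp2, a SUMO protease that docks at the pore, had 200.5, 314.8 and 180.7, higher at 2 h alone by 0.65. Of 16 measured genes of mRNA export none was 2-fold apart, which is also near the shares over all genes. The export receptor gene Nxf1 had signals of 245.8, 224.9 and 241.9.

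Of 13 measured genes of the nuclear envelope around the pores and its lamina, 1 was 2-fold lower at 12 h than at 0 h and none higher, beside 2.4% and 3.01% of all genes. Their median was -0.35. Sun2, which links the lamina to the cytoskeleton, had signals of 616.7, 507.8 and 218.1 and was 2.83-fold lower at 12 h. Lbr, the lamin B receptor, had 1251, 1095 and 676.7 and Lmnb1 405.6, 292.3 and 237.2. Tor1aip1, a torsin-binding membrane protein, went from 196.5 to 383.1 over 12 h, a log2 difference of 0.96. At 12 h the medians of the members and of the transport and envelope genes were below that of all genes, -0.05. The mRNA export median, -0.09, was close to it, with 9 genes below the all-gene median and 7 above. The median of the G2 and mitosis genes was the lowest, at -0.996. A link between these lists and cell division was not tested.

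**Figure D3:**
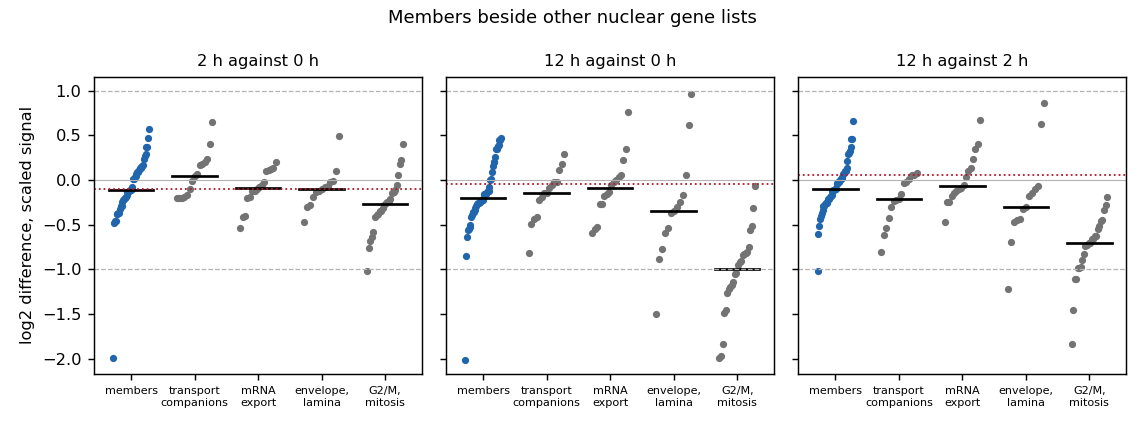
Log2 difference in scaled signal for each gene of the members (blue) and of 4 other lists (grey) in the 3 comparisons, 1 array per time; a point is a gene, black bars are medians, the red dotted line is the median of all measured genes and dashed lines mark 2-fold. At 12 h against 0 h the medians are -0.20 for members, -0.15 for transport companions, -0.09 for mRNA export, -0.35 for envelope and lamina and -0.996 for G2 and mitosis.

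Probe sets of one gene set how firmly single values can be read. In 24 members with more than 1 probe set above the floor, all probe sets had the same sign in 14 at 2 h, in 16 at 12 h and in 14 between 2 and 12 h. The SD between probe sets over the members was 0.34 at 2 h and 0.37 at 12 h, and 0.28 and 0.32 without Pom121, beside 0.32 and 0.34 over all genes. Genes whose probe sets above the floor all lay on one side of 0 h at both times included Pom121, Nup43, Kpna3, Kpna4, Nup155, Ipo8, Ipo5, Xpo1 and Xpo7. Another 19 members were read by 1 probe set and have no such check, Kpna2, Nup98 and Xpot among them.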

How the data were processed

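RNA levels were read on arrays of Affymetrix type in 1 colour, with 1 array for each time. The authors deposited linear intensity values, 22690 per array, of which 64 belong to controls. Per the labels' protocols, the target was made from 5 µg of total RNA; the sources used here name neither scanner software nor normalization. Trimmed means (2% at each end) were 150.1 on each array before rescaling. Arrays were set to one trimmed mean, signals under the 40th percentile (34.96) were raised to it, and log2 was taken. A probe set was named only where the platform annotation gave 1 gene, and the brightest represented a gene; all 45 members kept their symbol in RefSeq (GRCm38.p6). The ratio of 3' to 5' control probe sets ran from 0.66 to 0.71 for Gapdh and from 0.98 to 1.11 for Actb. Calls need 2-fold; no p-value was computed. Members, lists and the naming rule (every member at least 2-fold apart, the largest differences, probe sets that disagree, small role groups) were chosen with earlier results of these data known; the motifs, the 1.5-fold counts and the distance from the all-gene median were added after values were seen. The counting was tested on simulated data. Alternatives changed scaling, floor, probe set choice and fold. Python 3.11.15, numpy 2.4.6 and pandas 2.3.3 were used. The number of arrays limits the precision.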

Additional observations from a re-analysis of the deposited data

How the results depend on the processing

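With a fold of 1.5 in place of 2, 3 members rather than 1 were apart at 12 h against 0 h, and 3 rather than 1 between 2 and 12 h. Each is 3 of 44 measured members, beside 18.7% and 16.6% of all genes at that fold. The single decrease between 2 and 12 h, in Nup98, was lost with the floor at the 60th percentile, with a pseudocount and with a fold of 3, which each left 0. The Pom121 decreases stayed past 2-fold under every setting tried, at -2.04 to -1.19 (log2) at 2 h and -2.04 to -1.16 at 12 h. Every setting kept the brighter Pom121 probe set, so they do not check the size of the decrease. The second probe set alone gave -0.39 and -0.31, short of 2-fold. The members' median relative to all genes ran from -0.03 to 0.12 at 2 h, with the highest value when suffixed probe sets were left out, from -0.19 to -0.12 at 12 h and from -0.18 to -0.09 between them. Of 1038 member values recomputed, 23 shifted beyond the probe set SD, 14 of them with the median over probe sets, and none past 2-fold turned its sign. Between scalings, 9 members changed sign at 2 h, 1 at 12 h and 8 between 2 and 12 h. No paired analysis was possible because each time has 1 array. Nothing here measures the error between cultures.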
